A study of Bos taurus with 6 samples.

Results

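Cyclic nucleotide phosphodiesterases were examined in bovine cumulus cells, which enclose the oocyte in the follicle, by taking every array probe whose annotated gene symbol was PDE3A, PDE4A, PDE4B, PDE4D, PDE5A, PDE7A, PDE7B, PDE8A, PDE8B or PDE10A. Of these 10 genes 7 had a probe, and together they had 12 of the 43794 bovine probes. No probe carried the symbol PDE5A, PDE7A or PDE8B, and these genes were not analysed here. Complexes of oocyte and cumulus from abattoir ovaries of Holstein cows were cultured in small groups in medium with serum, pyruvate, gentamicin and 1 µg/mL estradiol. The treated complexes also received 0.5 µg/mL of recombinant follicle-stimulating hormone (rFSH), and the control complexes received none. There were 3 biological replicates, numbered 2, 3 and 4, each compared on 2 arrays with Cy3 and Cy5 exchanged, which gave 6 arrays. The age of the cows and the number of animals behind a replicate are not stated in the labels. The labels call the control a 6 h sample, but the protocol describes a culture of 22 to 24 h without separating the groups. If the times differed, rFSH and culture time cannot be told apart.

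FSH binds a receptor on granulosa and cumulus cells that acts through adenylyl cyclase and the second messenger cAMP. Phosphodiesterases end this signal by hydrolysing cAMP, cGMP or both. Families PDE4, PDE7 and PDE8 act on cAMP, PDE5 acts on cGMP, and PDE3 and PDE10 accept both nucleotides, PDE3 being inhibited by cGMP. In rat follicles PDE3A is the form of the oocyte and PDE4 forms predominate in granulosa cells. Genes of the PDE4 family are known in other cell types as targets of cAMP signalling itself.

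Per channel, 38.3% to 83.3% of bovine probes read above the negative controls. The lowest share belonged to the control RNA in Cy5 on an array of replicate 2. The limit for a raw signal was set per array and channel at 2 SD over the mean of the negative controls. A probe was tested where it passed this limit on at least 3 arrays for rFSH or for control. Of the 12 phosphodiesterase probes 10 were tested, covering all 7 genes with a probe. As a check of the cell type, 11 of 12 cumulus and granulosa markers were tested and 9 exceeded the limit on all 6 arrays in both channels, while the probe of AMHR2, the anti-Müllerian hormone receptor, exceeded it on none. The RNA came from whole cumulus preparations, in which a change in cell composition and a change in RNA per cell cannot be told apart, and precision is limited by there being 3 replicates.

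Signal set the scope of what could be measured for the family. Only 3 probes exceeded the limit on every array in both channels: EMBV3_08844 for PDE4B, EMBV3_30578 for PDE8A and EMBV3_28650 for PDE4A. The PDE4B probe read 4.23 to 17.2 times the limit with rFSH and 2.27 to 12.7 times without it. The PDE8A probe read 2.75 to 7.51 times the limit with rFSH and 3.13 to 6.79 times without it, and the PDE4A probe 1.38 to 1.88 and 1.16 to 1.60 times. The other 9 probes lay close to the limit, none above 1.58 times on any array in either channel. The offset added to every background-corrected signal draws the ratios of dim probes toward 0.

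**Figure D1:**
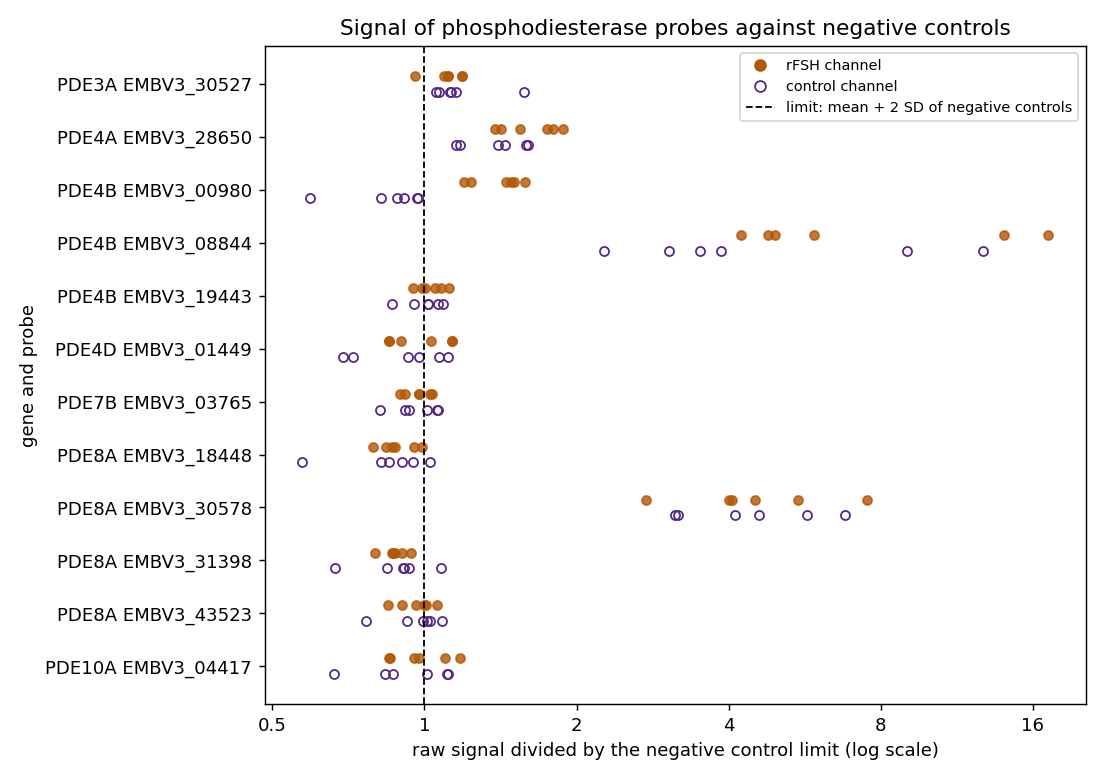
Raw signal of the 12 phosphodiesterase probes divided by the negative control limit of the same channel and array, on a log scale, with 6 points for the rFSH channel (filled) and 6 for the control channel (open). Probe EMBV3_08844 of PDE4B reached 17.2 times the limit and EMBV3_30578 of PDE8A 7.51 times, and the probes of PDE4D, PDE7B and PDE10A straddle the limit (dashed line).

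PDE4B, a cAMP-specific enzyme, was higher with rFSH by its brightest probe, EMBV3_08844, the only called phosphodiesterase probe above the limit in both groups. A further PDE4B probe was called with its control signal below the limit, and no probe of the other 6 genes was called. The brightest probe had a log2 ratio of rFSH over control of 1.11 in replicate 2, 0.80 in replicate 3 and 0.79 in replicate 4. All 6 arrays lay above 0, from 0.62 to 1.23. The mean was 0.90 ± 0.18 (SD, n = 3), which is 1.87-fold with a 95% interval of 1.54 to 2.27 (limma, adjusted p = 0.0312). In limma with Benjamini-Hochberg adjustment 2.97% of all 34831 tested probes were called higher and 3.37% lower, together 6.34%, and 895 tested probes had a larger ratio than this one. Of the 10 tested phosphodiesterase probes 2 were called higher and none lower, both for PDE4B and 1 of them with no measured control side, so that 1 of the 7 genes was called by its brightest probe, where 8.72% of all named genes were. At an unadjusted p under 0.05, 4 of the 10 passed, against 25.3% of all tested probes.

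The level of this probe was highest in replicate 4 in both groups. Its normalized log2 signal without rFSH was 9.06, 9.11 and 10.40 in replicates 2, 3 and 4, and with rFSH it was 10.17, 9.92 and 11.19. The control of replicate 4 therefore exceeded the rFSH-treated cells of replicates 2 and 3, although within each replicate the rFSH side was the higher one. When the channels were compared without pairing by replicate, the probe was no longer called (adjusted p = 0.408).

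Probe EMBV3_00980 of PDE4B exceeded the limit on 6 of 6 arrays with rFSH and on 0 of 6 without it. It thus entered the test through the rFSH channel alone. Its log2 ratios were 1.23, 1.02 and 0.71 in replicates 2, 3 and 4, with a mean of 0.99 ± 0.26 (SD, n = 3; adjusted p = 0.0361), and all 6 arrays lay above 0. Because the control signal was not above the negative controls, the fold is given as a bound from normalized channel signals. On each array the control side was set at its own signal or at the dimmest signal still above the limit, whichever was higher. The dimmest detected signal was used on 1 array, and on the rest the control side was the probe's own signal. With this processing the bound on the mean was 1.82-fold higher with rFSH (mean log2 signal 7.61 against a measured 6.62). This bound moves with the background correction and does not allow for the spread between arrays. The orientations differed in size, with a mean of 1.28 on the arrays with rFSH in Cy5 and 0.70 on those with rFSH in Cy3. With no offset added to the signals the mean ratio of this dim probe was 1.58, and with no background correction it was 0.68 and not called.

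The remaining PDE4B probe, EMBV3_19443, did not share the difference. It had log2 ratios of -0.20, 0.02 and 0.06 in replicates 2, 3 and 4 and a mean of -0.04 ± 0.14 (SD, n = 3; adjusted p = 0.855). Its 95% interval, from 0.82-fold to 1.16-fold, lay below that of both called probes. The probe was dim, exceeding the limit on 4 arrays in each channel and reaching at most 1.12 times the limit. The sources used here do not give the PDE4B transcripts that each probe binds.

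**Figure D2:**
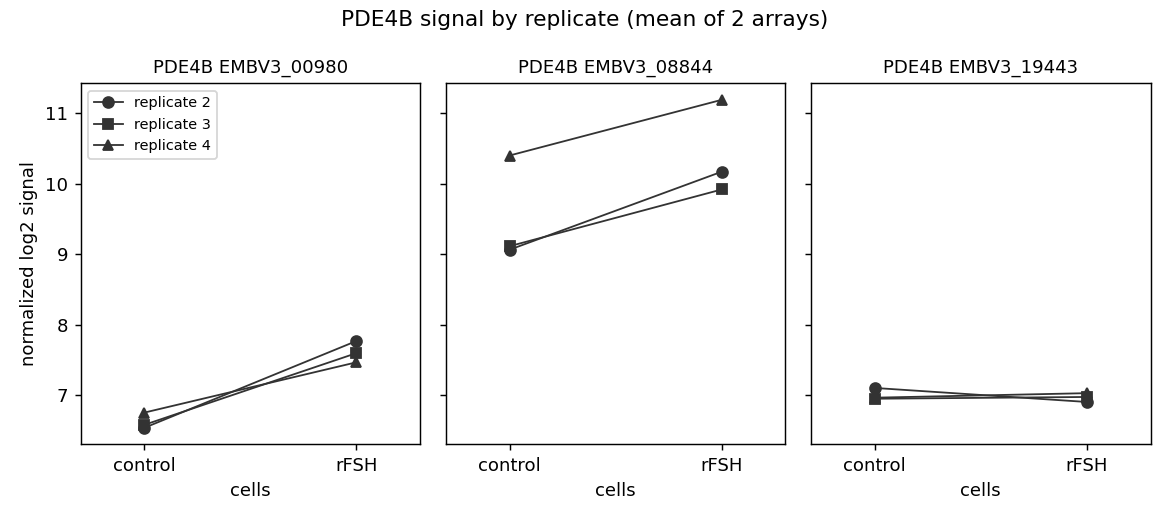
Normalized log2 signal of the 3 PDE4B probes in control and rFSH-treated cumulus cells, each line joining both groups of 1 replicate and each point the mean of 2 arrays. Lines rise in all 3 replicates for EMBV3_00980 and EMBV3_08844, whose replicate 4 lies highest at 10.40 and 11.19, and stay near 7.0 for EMBV3_19443.

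The PDE4B calls depended on replicates 2 and 3 and on the variance model. Without replicate 2 or replicate 3 no probe of any gene passed in limma, although 3 phosphodiesterase probes had an unadjusted p under 0.05 in each case, and an intensity trend in the prior variance left 0 calls over all probes, with 9180 at an unadjusted p under 0.05. The ratio of EMBV3_08844 itself stayed between 0.74 and 0.97 over the 14 alternatives that kept all replicates, and that of EMBV3_00980 between 0.68 and 1.58.

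PDE4A, another cAMP-specific enzyme of the same family, had a positive ratio on all 6 arrays, from 0.10 to 0.69. Its replicate values were 0.34, 0.27 and 0.51, with a mean of 0.37 ± 0.13 (SD, n = 3), or 1.29-fold with a 95% interval of 1.09 to 1.53. The difference did not pass after adjustment over all probes (limma, adjusted p = 0.0926). It passed with the replicate as a random block over 6 arrays (limma, adjusted p = 0.04996). That fit takes the dye-swapped arrays as correlated observations instead of 1 average per replicate. Over the alternatives that kept all replicates its adjusted p in limma ran from 0.04996 to 0.237. Its ratio was smaller in each replicate than those of the PDE4B probes EMBV3_08844 and EMBV3_00980 and larger than that of EMBV3_19443, differences that were not tested.

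PDE4C, counted below with the other phosphodiesterases, had a mean log2 ratio of 0.02 (limma, adjusted p = 0.928). PDE4D, the remaining PDE4 gene among those chosen here, was measured close to the limit, on 3 arrays with rFSH and 2 without. Its mean log2 ratio was 0.11 ± 0.08 (SD, n = 3, limma, adjusted p = 0.517), with a 95% interval from 0.92-fold to 1.25-fold. The orientations had opposite signs: the arrays with rFSH in Cy5 gave -0.24 to -0.08 and those with rFSH in Cy3 gave 0.27 to 0.56. This dye effect of -0.28 was called in limma (adjusted p = 0.0454).

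PDE8A, a cAMP-specific enzyme of high affinity, had 4 probes, of which 2 were tested and none was called. The bright probe EMBV3_30578 had replicate values of 0.31, 0.23 and 0.25, the narrowest spread of the tested probes, with a mean of 0.27 ± 0.04 (SD, n = 3; adjusted p = 0.126), or 1.20-fold with a 95% interval of 1.04 to 1.39. That narrow spread hid a split by dye. The arrays with rFSH in Cy5 read 0.51 to 0.61 and those with rFSH in Cy3 read -0.11 to 0.07, a dye effect of 0.29 (adjusted p = 0.0390). On the Cy5 arrays alone the probe was called higher (mean 0.56, adjusted p = 0.0367), and on the Cy3 arrays alone its mean was -0.03.

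The other tested PDE8A probe, EMBV3_43523, had a mean of -0.11 ± 0.11 (SD, n = 3; adjusted p = 0.525) and exceeded the limit on 2 arrays with rFSH and 3 without. EMBV3_18448 and EMBV3_31398 exceeded it on 1 control array each and were not tested. Their mean log2 ratios of 0.05 and -0.16 describe signal at the level of the negative controls.

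PDE3A, the enzyme best known from the oocyte, had the widest spread of the 12 probes. Its log2 ratios were -0.77 in replicate 2, 0.04 in replicate 3 and 0.13 in replicate 4, with a mean of -0.20 ± 0.50 (SD, n = 3; adjusted p = 0.632) and a 95% interval from 0.59-fold to 1.29-fold. The low value came mostly from a single array, the replicate 2 array on which rFSH was in Cy3. It read -1.26 there, against -0.29 to 0.44 on the others. In the control channel of that array 38.3% of bovine probes exceeded the limit, the lowest share, and in its rFSH channel 80.5%. PDE3A itself read 1.57 times the limit in that control channel and 1.19 times in that rFSH channel. Without replicate 2 the mean was 0.08.

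Transcripts of the oocyte moved between these replicates too, by their mean in another order. Over 15 tested oocyte markers the mean log2 ratio was 0.75 in replicate 2, -1.03 in replicate 3 and 0.17 in replicate 4, with 0 of 15 called and 0 at an unadjusted p under 0.05. The zona protein gene ZP4, for example, read 1.08, -2.67 and 0.03, and ZAR1, a maternal factor, 1.46, -2.67 and 0.16. PDE3A was thus lowest in the replicate in which the mean of these markers was highest with rFSH. Not every marker followed that mean: OOEP read -0.37, 0.01 and -0.23, and BMP15 0.62, 0.22 and 0.13. Only 2 of the 15 exceeded the limit on all 6 arrays in both channels. The summed signal of the 15 markers ranged from 2366 to 6776 with rFSH and from 2037 to 6842 without it. Their part in the PDE3A values was not tested.

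PDE7B, a cAMP-specific enzyme, and PDE10A, which accepts both nucleotides, were each above the limit on 2 arrays with rFSH and 3 without. PDE7B had a mean log2 ratio of -0.07 ± 0.05 (SD, n = 3; adjusted p = 0.648) and PDE10A one of -0.02 ± 0.14 (SD, n = 3; adjusted p = 0.939). Their 95% intervals ran from 0.82-fold to 1.10-fold and from 0.83-fold to 1.18-fold. Both changed sign with the dye: PDE7B averaged 0.12 with rFSH in Cy5 and -0.26 with rFSH in Cy3, PDE10A -0.26 and 0.23.

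Such sign changes were common among the tested probes, the bright PDE8A probe EMBV3_30578 included. For 7 of the 10 tested probes the means of the 2 orientations had opposite signs, as they did for 44.6% of all tested probes, and 2 of the 10, those of PDE4D and PDE8A named above, had a called dye effect against 12.7% of all tested probes. Only PDE4A and both called probes of PDE4B had the same sign on all 6 arrays, against 21.7% of all tested probes. Of these, EMBV3_00980 entered the test through the rFSH channel alone, so its sign adds no separate support. The median log2 ratio of the 10 tested probes was 0.04, beside 0.01 over all tested probes.

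**Figure D3:**
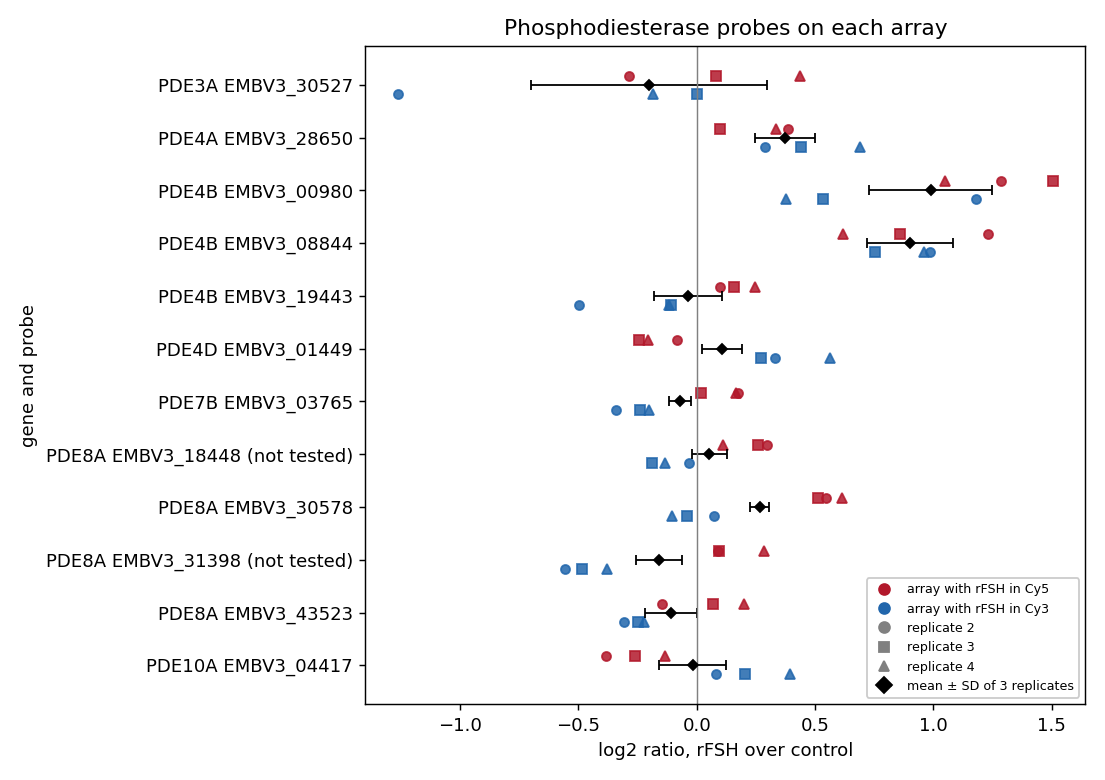
Log2 ratio of rFSH over control for each phosphodiesterase probe on each of 6 arrays, coloured by the dye of the rFSH sample and shaped by replicate, with the mean ± SD of 3 replicates in black. PDE4A and the PDE4B probes EMBV3_00980 and EMBV3_08844 lie right of 0 on every array, whereas PDE4D and PDE10A have their Cy5 and Cy3 arrays on opposite sides of 0.

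The other phosphodiesterase genes gave few further differences. Of 11 such genes with a probe, PDE1A, PDE1B, PDE1C, PDE2A, PDE3B, PDE4C, PDE6A, PDE6B, PDE6C, PDE9A and PDE11A, 9 were tested and 0 were called in limma, with 1 at an unadjusted p under 0.05. Of all 13146 named genes, each by its brightest tested probe, 3.87% were called higher and 4.85% lower, and 30.8% had an unadjusted p under 0.05, so that a list of this size with 0 calls lies near the background. The gene at an unadjusted p under 0.05 was PDE3B, the paralog of PDE3A, with 0.32, 0.32 and 0.44 in the replicates and a mean of 0.36 (adjusted p = 0.0795); it is named after its value was seen. The median of the 9 was 0.03, and PDE2A did not exceed the limit on any array.

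PDE6D encodes a small protein first found with the photoreceptor enzyme that carries prenylated proteins between membranes and is itself no phosphodiesterase. It fell by 0.66 on the log2 scale (adjusted p = 0.0400), with -0.58, -0.82 and -0.57 in replicates 2, 3 and 4. In 5 of the 14 alternatives with every replicate PDE6D was not called (adjusted p up to 0.0939). The photoreceptor subunits PDE6G and PDE6H had mean log2 ratios of 0.18 and 0.09 and were not called.

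The genes that make cyclic nucleotides were likewise near the background. Of 10 tested adenylyl cyclase and G protein genes 0 were called in limma, with 2 at an unadjusted p under 0.05 and a median log2 ratio of -0.07. The inhibitory subunit gene GNAI1 read -0.93, -0.28 and -1.05 by its brightest probe (adjusted p = 0.0922). For GNAS, the stimulatory subunit through which the FSH receptor acts, the brightest probe had a ratio of 0.04 (limma, adjusted p = 0.797). It was among the brightest probes of the arrays (mean normalized log2 signal 15.25 with rFSH and 15.21 without). Whether its signal was saturated, which would hide a difference, was not tested. A dimmer GNAS probe, EMBV3_36627, read -1.15, -0.97 and -0.60 (mean -0.91, adjusted p = 0.0426) and the last -0.40 (adjusted p = 0.0942). GNAI1 and GNAS are named after their values were seen.

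Of 7 tested guanylyl cyclase and natriuretic peptide receptor genes 0 were called in limma, with 2 at an unadjusted p under 0.05. Of these, GUCY1B3 read -0.28, -0.33 and -0.35 by its brightest probe (limma, adjusted p = 0.0900), which exceeded the limit on all 6 arrays in both channels. Its dimmer probes had mean log2 ratios of -0.27 and -0.11 and were not called. GUCY1B3 is named after its value was seen. The probe of GUCY1A3, a subunit of soluble guanylyl cyclase now named GUCY1A1, exceeded the limit on 0 arrays with rFSH and on 3 without, so that it was tested through the control channel alone. With this processing the bound on its mean was 1.61-fold lower with rFSH, which does not allow for the spread between arrays. The rFSH side was set at the dimmest detected signal on 3 arrays and at the probe's own signal on the rest. The difference was not called (adjusted p = 0.0501), and the gene is named after its value was seen. Its dye effect of 0.37 was called in limma (adjusted p = 0.0257). The mean log2 ratio was -0.43 with rFSH in Cy5 and -1.18 with rFSH in Cy3.

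Among effectors and anchors single genes were called. PRKAR1A, a regulatory subunit of the cAMP-dependent kinase, was higher in every replicate (0.92, 1.11 and 1.22, mean 1.08, adjusted p = 0.0257), the only call among 9 tested effector genes, whose median was near 0 at -0.0028. AKAP7, an anchor of that kinase, was higher with 2.71, 1.89 and 1.48 (mean 2.03, adjusted p = 0.0352; its replicate 2 value rests on 1 array, since the spot was marked as ignored on the other), the only call among 11 tested anchor, partner and export genes. Another AKAP7 probe was called as well (1.18, adjusted p = 0.0480), and its dimmest was not (-0.08, adjusted p = 0.680). PDE4DIP, which anchors PDE4D to the centrosome and Golgi, had a mean of 0.06 (adjusted p = 0.708).

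**Figure D4:**
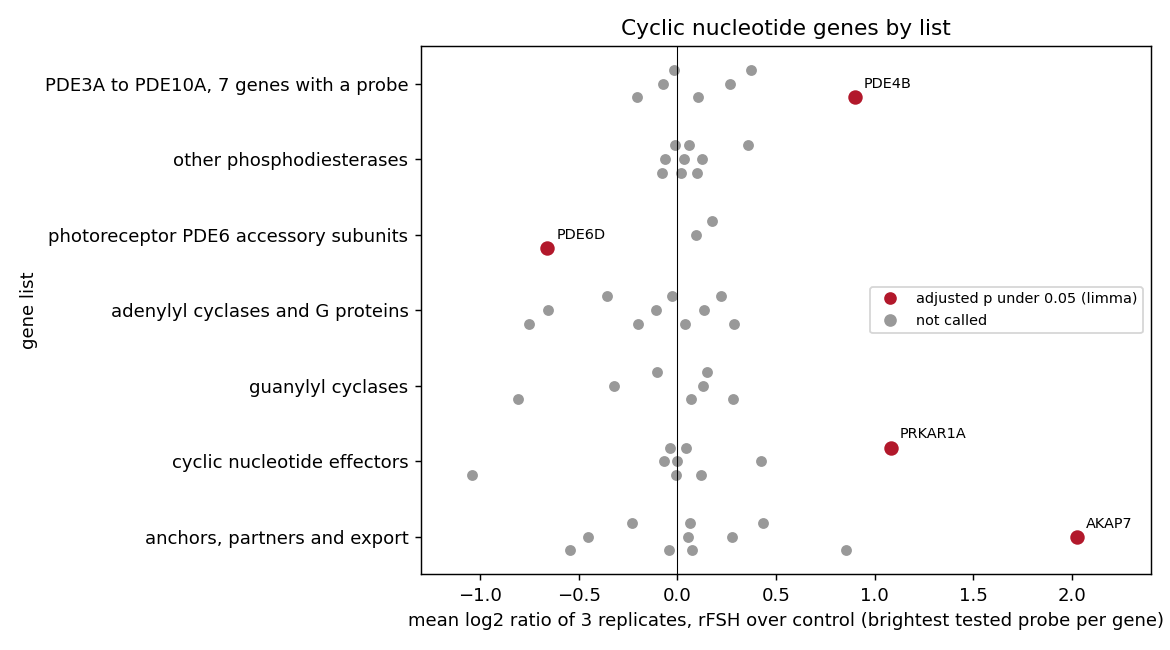
Mean log2 ratio of rFSH over control for cyclic nucleotide genes, 1 point per gene by its brightest tested probe, grouped by list. Called genes are red and named: PDE4B at 0.90, PRKAR1A at 1.08 and AKAP7 at 2.03 lie above 0, and PDE6D at -0.66 lies below.

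The genes whose pattern over the 6 arrays lay nearest to that of PDE4B were found by Euclidean distance between turned log2 ratios of brightest probes, over 13065 named genes with a value on every array. SIK3, a salt-inducible kinase, was nearest at a distance of 0.31, with a mean log2 ratio of 0.82 (adjusted p = 0.0297). ARID3A, a DNA-binding protein, followed at 0.38 with a mean of 0.91 (adjusted p = 0.0282), and LOC100295775 at 0.42 with a mean of 0.93 (adjusted p = 0.0286). Since distance favours ratios of like size, these genes were also all called higher.

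Markers of other cells were set beside the PDE4B difference, since PDE4B is abundant in leukocytes. Of 8 tested blood and immune markers 0 were called in limma, with 1 at an unadjusted p under 0.05, and their mean log2 ratio was 0.36 in replicate 2, -0.01 in replicate 3 and 0.36 in replicate 4. Only CD68 exceeded the limit on every array in both channels, and the summed signal of the 8 ranged from 1716 to 4917 with rFSH and from 1301 to 3416 without it. The leukocyte antigen gene PTPRC had a ratio of 0.09 (adjusted p = 0.544) by its tested probe, and its level differed between replicates: the log2 signal was 7.04 and 7.14 in the controls of replicates 2 and 3 and 10.93 in that of replicate 4, and with rFSH it was 7.13, 7.23 and 11.02. Replicate 4 was thus the highest for PTPRC and for the PDE4B probe EMBV3_08844 in both groups. The PDE4B probe EMBV3_00980 was lowest in replicate 4 with rFSH, at 7.77, 7.60 and 7.47 in replicates 2, 3 and 4. Without rFSH, where its signal was below the limit, it read 6.54, 6.58 and 6.75. The other PTPRC probe and that of ITGAM, a myeloid integrin, were above the limit on no array. The highest of these markers, CD68, read 1.27, 0.33 and 2.30 (adjusted p = 0.141) and is named after its value was seen.

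Of 4 tested endothelial markers 0 were called in limma, with 1 at an unadjusted p under 0.05, a mean log2 ratio of 0.33 and a summed signal of 721 to 915 with rFSH and 513 to 667 without; PECAM1 was not above the limit on any array. Of 8 theca and smooth muscle markers 3 were called lower, beside 4.85% of all named genes. The contractile genes CNN1 (log2 ratio -1.53, adjusted p = 0.0334) and ACTA2 (-1.29, adjusted p = 0.0470) were measured in both groups, whereas MYH11 was not above the limit with rFSH on any array and entered the test through the control channel alone (adjusted p = 0.0430). The summed signal of these 8 was 7182 to 10780 with rFSH and 14830 to 26830 without. The theca markers CYP17A1 and INSL3 had ratios of 0.05 and 0.09 and were not called. Of 11 tested cumulus and granulosa markers 2 were called higher and 1 lower in limma, beside 3.87% and 4.85% of all named genes. At an unadjusted p under 0.05, 7 of the 11 passed, beside 30.8% of named genes. INHBB (2.30) and CYP11A1 (2.20) were called higher. The FSH receptor gene FSHR fell by 0.83 (limma, adjusted p = 0.0479) but was not called under 8 of 14 alternatives. Not called, and named after their values were seen, were AMH (1.44), INHBA (0.80), FST (-1.17) and HSD3B1 (-1.10). FSHR had a called dye effect of 0.33 (limma, adjusted p = 0.0304), with -0.50 with rFSH in Cy5 and -1.15 with rFSH in Cy3. INHBB had one of -0.47 (limma, adjusted p = 0.0144). The summed signal of the cumulus and granulosa markers was 140800 to 151500 with rFSH and 106600 to 137100 without. This sum includes probes among the brightest of the arrays, whose saturation was not tested. The part of these other cells and markers in the PDE4B difference was not tested.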

How the data were processed

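Per the file headers, the deposited scanner files give spot and background intensity per dye, linear and not normalized, and mark ignored spots. Per the labels' protocols the RNA was amplified with T7 polymerase and labelled directly. The authors also deposited normalized log2 ratios. Set against the scanner values (r from 0.976 to 0.992 per array), these run as Cy5 over Cy3 on every array, with column medians from -0.0202 to 0.00122. How the authors normalized them is not stated here, and they served as an alternative.

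Mean pixel intensities of 45220 spots were processed with limma 3.58.1 (R 4.3.3): normexp with offset 50 on the median background, then loess within each array (span 0.3), control spots having weight 0. On each array 18 to 63 ignored bovine probes were left out. The limit used 153 negative control spots. Ratios were turned to rFSH over control by the labelled dyes and averaged over the dye swap. The 3 averages were fitted with lmFit and eBayes over 34831 probes and called at a Benjamini-Hochberg adjusted p under 0.05. The pairing by replicate number is that of the arrays themselves, since each holds both groups of 1 replicate. The dye effect is the difference between the orientations, Cy5 minus Cy3, divided by 2, tested alike over 34633 probes with a value on every array. Levels are channel values after loess and Aquantile normalization, and a summed signal adds these on the linear scale over the brightest tested probes of a list. The fit was tested on simulated replicate ratios with known changes, and the turning by dye on simulated array ratios. The other steps were not tested on simulated data. Whether replicates came from separate animals is not stated, so p-values measure the spread between these samples.

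Gene symbols are those of an old platform annotation: 21790 bovine probes had 1 symbol, 0 had several and 22004 had none here. No gene or accession number accompanied them, so symbols were not updated. Of the named probes 20025 matched a current RefSeq symbol, 1600 a synonym and 165 neither. The members, gene lists, rules and tests were chosen with earlier results of these data known. The rule for named genes took all member probes, up to 4 called genes per list and the 3 genes nearest to each called member.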

Additional observations from a re-analysis of the deposited data

Results flagged for a closer look

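Dixon's test was applied to 20 sets of 6 array values, those of the phosphodiesterase probes and of the called genes in the lists, to find an array far from the rest. It marked 1 set, the number that chance alone would give. MYH11 had a log2 ratio of -0.27 on the replicate 4 array with rFSH in Cy3, while the other arrays read between -0.85 and -0.71. Its rFSH signal was below the limit on every array. For the phosphodiesterases no array was marked.

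The dye orientations differed for the probes of 2 phosphodiesterases in limma. The dye effect was -0.28 for PDE4D (adjusted p = 0.0454), with all 3 arrays of one orientation below 0 and all 3 of the other above it. It was 0.29 for the bright PDE8A probe EMBV3_30578 (adjusted p = 0.0390). Of all tested probes 12.7% had a called dye effect.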

How the results depend on the processing

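The main counts were 2 phosphodiesterase probes higher and 0 lower, 1035 and 1173 of all probes higher and lower, 3 pathway genes and 2 phosphodiesterase dye effects. The phosphodiesterase probes called higher in the main fit include EMBV3_00980, which was tested through the rFSH channel alone. With a random replicate block over 6 arrays they were 3 phosphodiesterase probes higher, 2664 and 3364 probes, and 12 pathway genes. With no replicate block, the channels unpaired, they were 1 phosphodiesterase probe and 468 and 558 probes. With no background correction there were 1 phosphodiesterase probe higher, 570 and 482 probes, and 1 dye effect. Plain subtraction gave 715 probes lower and 1 dye effect, an offset of 0 gave 1863 lower and 6 pathway genes, and the authors' ratios gave 1 dye effect. Median centring gave 777 probes higher and 1848 lower, 6 pathway genes and 0 dye effects. Medians of pixels gave 6 pathway genes and 0 dye effects, and a limit passed on all 6 arrays gave 7 pathway genes and 0 dye effects. Arrays with rFSH in Cy5 alone gave 1566 and 1833 probes and 5 pathway genes. Those with rFSH in Cy3 alone gave 1 phosphodiesterase probe, 1576 probes higher and 6 pathway genes. An intensity trend in limma's prior variance gave 0 of every call, with 9180 probes at an unadjusted p under 0.05. A threshold of 0.1 gave 2330 and 2771 probes, 11 pathway genes and 5 dye effects. Leaving out 1 replicate gave 0 to 2 phosphodiesterase probes higher, 0 to 510 probes higher, 0 to 677 lower, 0 to 2 pathway genes and 0 to 4 dye effects. The counts of 0 probes are those without replicate 2 or 3, where limma called 0 probes, with 6875 and 7399 at an unadjusted p under 0.05. The causes were not tested, save that fewer samples entered the last.

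No called ratio changed sign. PDE4B probe EMBV3_08844 was called in 12 of 14 alternatives with every replicate. Probe EMBV3_00980, which entered the test through the rFSH channel alone, was called in 11 of 14. Leaving out a replicate moved their ratios to between 0.80 and 0.96 (adjusted p from 0.0498 to 0.140) and between 0.87 and 1.13 (adjusted p from 0.0375 to 0.147). Without the replicate 2 array with rFSH in Cy3, an alternative chosen after seeing the data, these 2 PDE4B probes were still called higher.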
